A study of Saccharomyces cerevisiae with 12 samples.

Results

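Open promoters of 34 Saccharomyces cerevisiae genes of glycolysis, gluconeogenesis and fermentation were described in 12 chromatin accessibility libraries. The genes were taken from a list by symbol, and all 34 were found among the 6002 protein-coding genes placed on the 16 nuclear chromosomes. As promoter of a gene counted the 500 bp before its annotated start and the first 100 bp after it. It was called open in a library when the highest point of a peak, its summit, lay there. Distances are given from the gene start, and a minus sign means upstream.

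The assay was ATAC-seq, which uses the Tn5 transposase to cut and label accessible DNA. The host in every group was BY4741, a haploid laboratory strain, carrying synHPRT1R or synHPRT1. The second is the human HPRT1 locus built as synthetic DNA, and the first is its sequence in reverse order. Each was held on a yeast artificial chromosome (YAC) or was integrated on chromosome XI. The 4 groups, with 3 libraries each, were synHPRT1R on the YAC, synHPRT1 on the YAC, synHPRT1R integrated and synHPRT1 integrated. YAC strains grew in SC-Leu medium and integrated strains in YPD, so format and medium cannot be told apart. All cells were taken in mid-log growth at 30 °C, 6 h after dilution. Each library had a peak list of its own, with 982 to 1343 peaks, 913 to 1303 of them nuclear, and no read depth. Whether replicates were separate cultures or isolates is not labelled, so it is unknown whether the libraries are independent. The p-values therefore describe these libraries only and cannot be carried over to other cultures or isolates.

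Glycolysis breaks glucose down to pyruvate, and in fermentation pyruvate decarboxylases and alcohol dehydrogenases turn pyruvate into ethanol. Budding yeast ferments glucose even in air, and the genes of lower glycolysis are among its most strongly transcribed. Several steps have isozymes, of which some are used on glucose and others are repressed by it. Gluconeogenesis runs the pathway backwards and needs enzymes of its own, and Gcr1, Gcr2 and Tye7 are activators of glycolytic genes.

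Promoters of the 34 genes held a summit in 46.8 ± 5.24% of cases per library (mean ± SD, n = 12), against 15.6 ± 2.04% for all 6002 genes. The number of open promoters was 15, 13 and 14 in synHPRT1R YAC libraries, 15, 16 and 16 in synHPRT1 YAC libraries, 19, 17 and 18 in synHPRT1R integrated libraries and 14, 17 and 17 in synHPRT1 integrated libraries. Of the 34 genes, 4 were open in all 12 libraries and 14 in at least 9, which is 41.2% of them, against 9.20% of all genes. In none of the 12 libraries were 9 of the 34 open, or 26.5%, against 63.0% of all genes. The genes of lower glycolysis had a median of 11 open libraries, and so had those of upper glycolysis. The median was 9 for glucose phosphorylation, 2 for pyruvate decarboxylases and 1 for alcohol dehydrogenases.

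**Figure D1:**
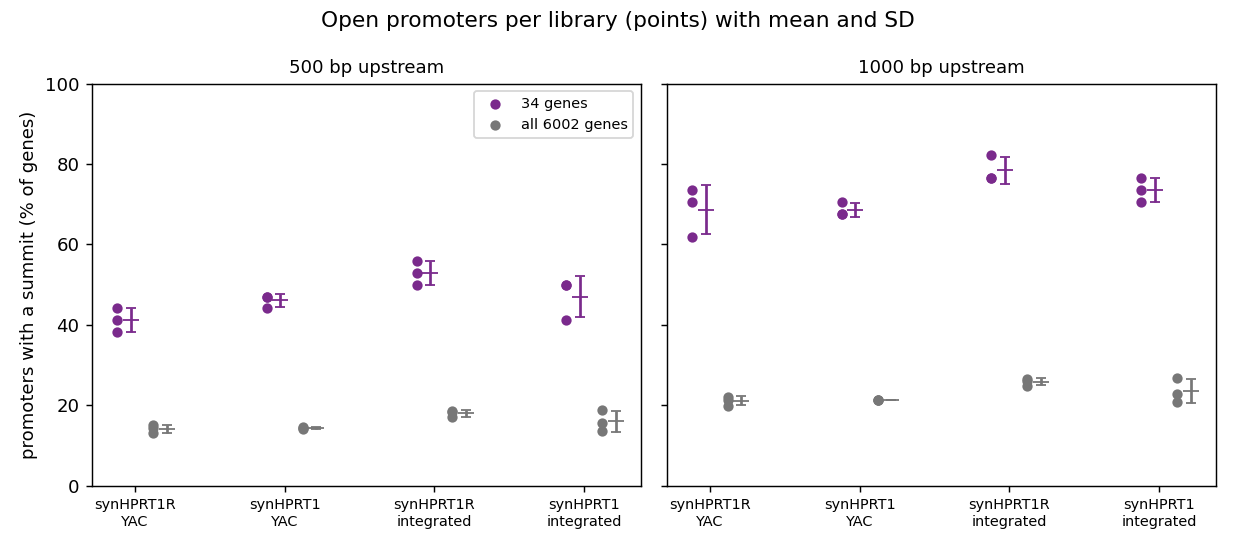
Percentage of promoters with a summit in each library (points), with mean and SD (n = 3 per group), for the 34 genes and all 6002 genes. The left panel uses the window of 500 bp upstream and the right panel one of 1000 bp. In both panels the 34 genes lie above all genes in each of the 12 libraries.

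The counts depended on the window. Summits of the 34 genes were most often in the bin from -500 to -401 bp, where 19.9 ± 5.19% of them had one per library (n = 12), against 3.25 ± 0.371% of all genes. Over all genes the fullest bin was nearer the start, from -400 to -301 bp, with 4.07 ± 0.520%. None of the 34 genes had a summit from -100 to 99 bp in any library. The nearest upstream gene was a median of 857 bp away for the 34 genes and 455 bp for all genes with such a neighbour. With the upstream limit at 300 bp, 11.3 ± 4.66% of the 34 promoters were open, against 8.37 ± 1.33% of all promoters. With the limit at 1000 bp, a window added after the positions had been seen, the values were 72.3 ± 5.39% and 23.0 ± 2.47%. In that window 18 of the 34 genes were open in all 12 libraries, or 52.9%, against 8.28% of all genes. When any base of a peak in the original window counted, 69.4 ± 5.09% of the 34 and 21.7 ± 2.57% of all promoters were open.

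**Figure D2:**
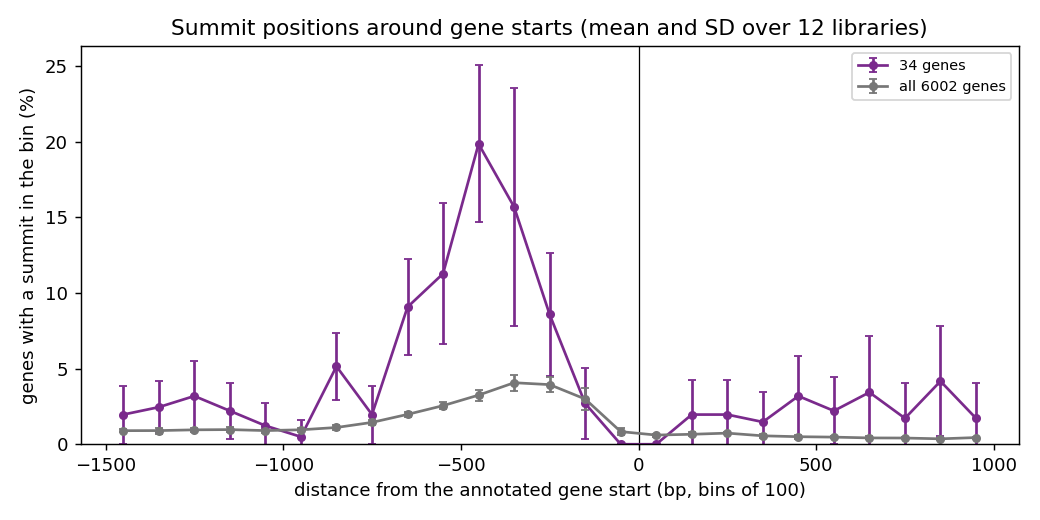
Percentage of genes with a summit in bins of 100 bp around the annotated gene start, as mean and SD over 12 libraries, for the 34 genes and all 6002 genes. The 34 genes peak in the bin starting at -500 bp with 19.9%, and all genes in the bin starting at -400 bp with 4.07%.

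Glucose phosphorylation opens the pathway, and its isozymes differed. HXK2 encodes the main hexokinase of cells on glucose (chromosome VII, 23935 to 25395). Its promoter was open in 9 of 12 libraries, 4 of 6 YAC and 5 of 6 integrated, with summits from -497 to -323 bp and a median of -455 bp. The other 3 libraries had summits just outside, so that all 12 were open within 1000 bp. GLK1, for glucokinase, was open in 5 of 6 YAC and 5 of 6 integrated libraries, at a median of -330.5 bp. In all 10 libraries that summit also lay in the promoter of the divergent neighbour PDI1, which encodes a protein disulfide isomerase of the endoplasmic reticulum. In the remaining 2 libraries a broad peak reached the GLK1 promoter with its summit inside the gene. HXK1, the hexokinase that glucose represses, was open in 0 of 12 libraries, and only in 1 within 1000 bp. HXK2 was open without HXK1 in 9 libraries and HXK1 without HXK2 in 0 (exact two-sided sign test over 12 libraries, adjusted p = 0.0188 over the 24 isozyme pairs compared). GLK1 exceeded HXK1 in 10 libraries and fell short in 0 (exact sign test, adjusted p = 0.0117). These differences depended on the window. With 300 bp upstream HXK2 was open in 0 libraries and GLK1 in 4, and 0 of the 24 pairs passed.

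In upper glycolysis, FBA1 and TPI1 were open in all 12 libraries. FBA1 (chromosome XI, 326408 to 327487) encodes fructose-bisphosphate aldolase, and its summits ran from -491 to -213 bp with a median of -413 bp. TPI1, for triose phosphate isomerase, had summits from -413 to -260 bp with a median of -334.5 bp. PGI1, for phosphoglucose isomerase, was open in 5 of 6 YAC and 6 of 6 integrated libraries. In all of these the summit also lay in the promoter of the small neighbouring reading frame YBR196C-A, which ends 123 bp away.

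PFK1 and PFK2 encode the alpha and beta subunits of phosphofructokinase, which act in a single complex. Their peaks lay at different distances. PFK2 was open in 7 of 12 libraries, and its strongest summit within 1000 bp ranged from -638 to -428 bp with a median of -499.5 bp. PFK1 was open in 0 of 12, and no base of a peak touched its promoter in any library. Within 1000 bp it had a summit in all 12, at a median of -880.5 bp, and in 10 of 12 the position lay within 5 bp of -880 bp. In 10 libraries this summit was inside YGR240C-A, a reading frame that ends 842 bp from PFK1. PFK2 was open without PFK1 in 7 libraries and the reverse in 0 at 500 bp (exact sign test, adjusted p = 0.0536), and at 1000 bp both were open in 12.

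**Figure D3:**
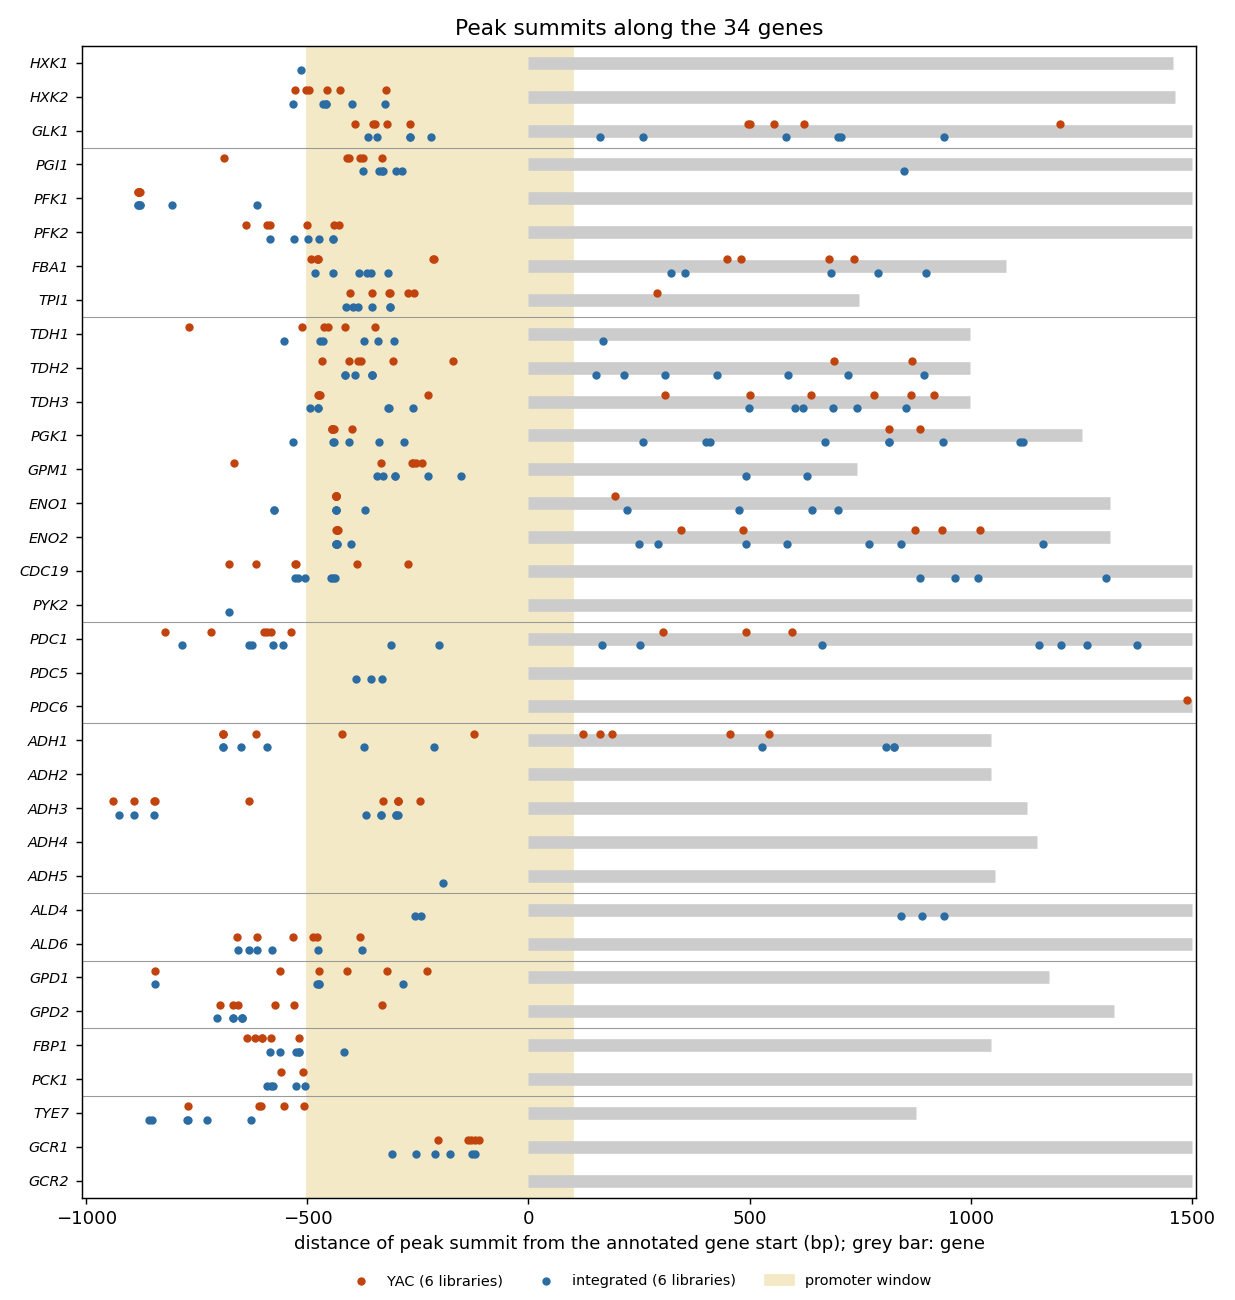
Summits by distance from the annotated gene start (bp) for each of the 34 genes, grouped by role from glucose phosphorylation at the top to regulators at the bottom. Points are summits in YAC libraries (above) and integrated libraries (below), grey bars are the genes, drawn to 1500 bp, and the shaded band is the promoter. TDH2 had a summit inside the gene in 2 of 6 YAC and 6 of 6 integrated libraries.

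Lower glycolysis held 7 of the 14 promoters open in at least 9 libraries. TDH1, TDH2 and TDH3 encode glyceraldehyde-3-phosphate dehydrogenase. TDH2 was open in all 12 libraries, with summits from -468 to -171 bp. TDH3 was open in 11, and in 6 of these the summit lay within 5 bp of -475 bp. TDH1, a minor isozyme on glucose, was open in 6 of 6 synHPRT1R libraries and in 3 of 6 synHPRT1 libraries, 1 on the YAC and 2 integrated. Fisher's exact test gave p = 0.182 and an adjusted p of 1 over the 2040 genes tested. The 3 synHPRT1 libraries without an open TDH1 promoter had summits at -513, -768 and -552 bp, outside the window, and TDH1 was open in all 12 libraries within 1000 bp. None of the 3 TDH pairs passed the sign test in either window.

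PGK1 encodes phosphoglycerate kinase (chromosome III, 137746 to 138996). It was open in 6 of 6 YAC and 5 of 6 integrated libraries, at a median of -439 bp, and its strongest summit within 1000 bp stood at a median percentile of 93.2 by fold enrichment among the nuclear peaks of its library. That fold enrichment is the authors' own value per peak and was used only to describe, rank or filter peaks. In 10 of 12 libraries the summit also lay in the promoter of ADP1, the divergent neighbour. GPM1, for phosphoglycerate mutase, was open in 5 of 6 YAC and 6 of 6 integrated libraries, nearer its start, at a median of -264 bp.

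The enolase genes had closely placed summits. ENO2 (chromosome VIII, 451327 to 452640), the main enolase on glucose, was open in all 12 libraries. Its summits ran from -436 to -401 bp, and in 11 of 12 libraries the position lay within 5 bp of -434 bp. All 12 summits were inside the reading frame YHR173C, which starts upstream of ENO2 on the other strand. ENO1 (chromosome VII, 1000927 to 1002240) was open in 6 of 6 YAC and 4 of 6 integrated libraries. In 9 of 12 its strongest summit within 1000 bp lay within 5 bp of -435 bp. All 6 YAC libraries had it at -435 or -436 bp. Integrated libraries ranged more widely, and the 2 synHPRT1 integrated libraries with no open ENO1 promoter had summits at -575 and -576 bp. By rank, ENO2 had a median percentile of 94.1 and a range from 56.4 to 98.7, and ENO1 had 89.9, from 53.8 to 98.4. The pair missed the threshold of the sign test, with ENO2 open in 12 and ENO1 in 10 libraries (exact p = 0.500, adjusted p = 0.706).

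Pyruvate kinase closes glycolysis. CDC19, the isozyme used on glucose, was open in 2 of 6 YAC and 3 of 6 integrated libraries. Within 1000 bp all 12 were open, at a median of -513.5 bp, just past the limit. PYK2, which glucose represses, was open in 0 of 12, and in 1 within 1000 bp. The pair missed the threshold at 500 bp (exact sign test, adjusted p = 0.167). At 1000 bp CDC19 was open without PYK2 in 11 libraries and the reverse in 0 (exact sign test, adjusted p = 0.00293). The wider window was chosen after the summit positions had been seen, so p-values of pairs at 1000 bp are description only.

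**Figure D4:**
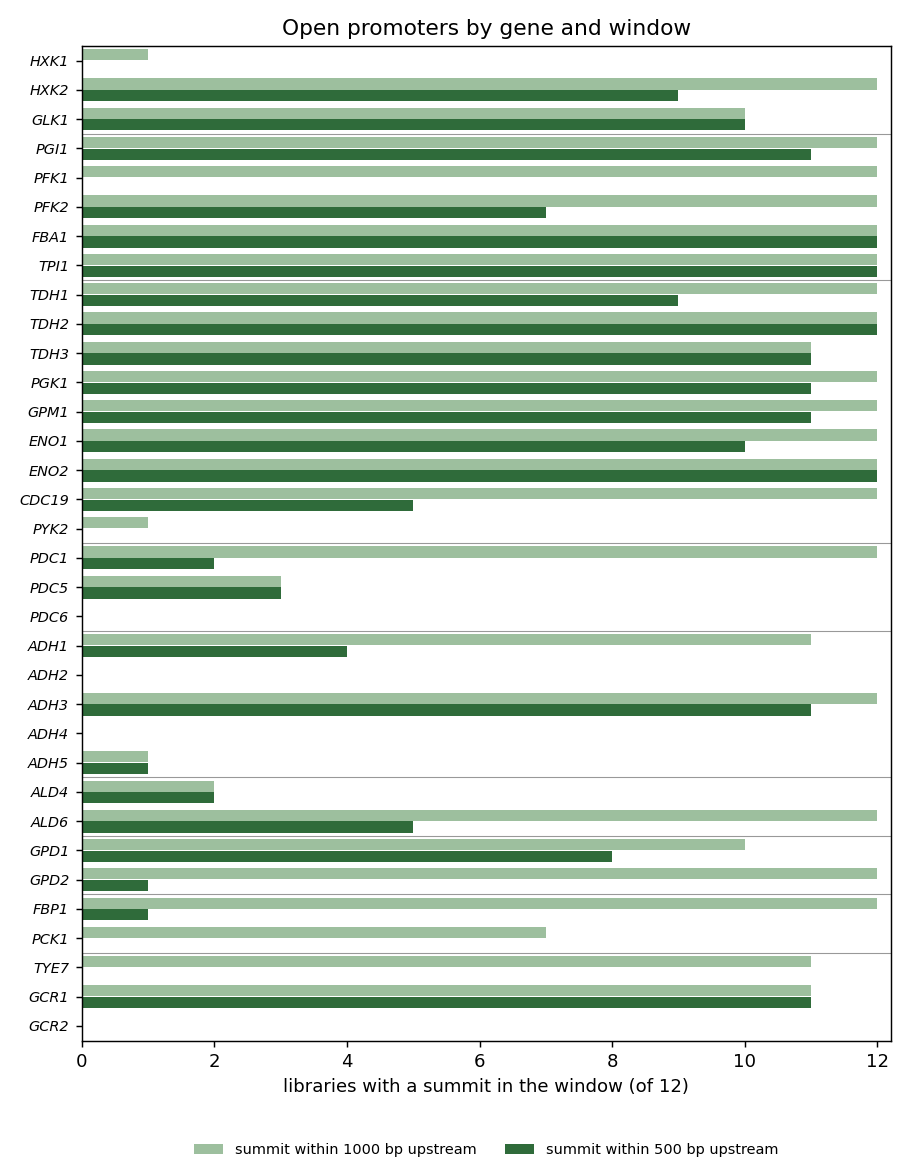
Number of the 12 libraries in which each of the 34 genes had a summit within 1000 bp (light) or 500 bp (dark) upstream, to 100 bp downstream of the gene start. Lines separate the 9 role groups. PFK1, PDC1, GPD2, FBP1 and TYE7 rise from at most 2 libraries to 11 or 12 with the wider window, and PDC6, ADH2, ADH4 and GCR2 stay at 0.

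Fermentation genes split by isozyme. PDC1, the main pyruvate decarboxylase, was open in 0 of 6 YAC and 2 of 6 integrated libraries at 500 bp. Within 1000 bp it was open in all 12, at a median of -595 bp with a range from -822 to -312 bp. PDC5, an isozyme known to rise when PDC1 is lost, was open in 0 of 6 YAC and 3 of 6 integrated libraries. Those were synHPRT1R integrated replicates 2 and 3, with summits at -357 and -332 bp, and synHPRT1 integrated replicate 2, with a summit at -390 bp. The difference did not pass Fisher's exact test (p = 0.182, adjusted p = 1), and the wider window left the counts at 0 and 3. PDC6, a minor isozyme, was open in 0 of 12 in both windows. At 500 bp PDC1 was open in 2 and PDC5 in 3 libraries. At 1000 bp PDC1 was open without PDC5 in 9 libraries and the reverse in 0 (exact sign test, adjusted p = 0.00781). That p-value too is description only, since the window followed the positions seen.

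Of the alcohol dehydrogenases, ADH3, the mitochondrial isozyme (chromosome XIII, 434788 to 435915), was open in 5 of 6 YAC and 6 of 6 integrated libraries. Its summits in the promoter ran from -368 to -246 bp with a median of -299 bp. ADH1, which forms ethanol in the cytosol, was open in 2 of 6 YAC and 2 of 6 integrated libraries at 500 bp, and in 11 of 12 within 1000 bp at a median of -650 bp. Peaks at ADH1 were broad, with a median width of 1264 bp, and touched the promoter in all 12 libraries. ADH2, the ethanol-oxidising isozyme that glucose represses, and ADH4 were open in 0 of 12 in both windows, and ADH5 in 1 of 12. ADH3 was open in more libraries than ADH2, ADH4 and ADH5 in both windows (exact sign tests, adjusted p = 0.0117 for each at 500 bp). ADH1 exceeded the same 3 genes only at 1000 bp, in 11, 11 and 10 libraries against 0 (exact sign tests, adjusted p = 0.00293, 0.00293 and 0.00469). Because that window was chosen with the positions known, these p-values only describe.

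The aldehyde dehydrogenases oxidise acetaldehyde to acetate. ALD6, the cytosolic isozyme, was open in 3 of 6 YAC and 2 of 6 integrated libraries. Within 1000 bp it was open in all 12. All 12 of those summits lay inside the neighbouring reading frame YPL062W. ALD4, the mitochondrial isozyme, was open in 0 of 6 YAC and 2 of 6 integrated libraries in both windows. ALD6 exceeded ALD4 at 1000 bp in 10 libraries and fell short in 0 (exact sign test, adjusted p = 0.00469), but not at 500 bp (adjusted p = 0.706). Here as well, the p-value of the wider window is description only.

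Glycerol 3-phosphate dehydrogenase, which starts glycerol formation, is encoded by GPD1 and GPD2. GPD1 was open in 4 of 6 YAC and 4 of 6 integrated libraries. GPD2 was open in 1 of 12, and in all 12 within 1000 bp at a median of -652 bp. In 11 of those the summit lay in the promoter of the divergent gene MAM3. The order of the pair turned with the window, with GPD2 open in 1 library and GPD1 in 8 at 500 bp, and GPD2 in 12 and GPD1 in 10 at 1000 bp. Neither difference passed the exact sign test (adjusted p = 0.0536 and 0.800).

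Genes of gluconeogenesis, which glucose represses, had their strongest summits within 1000 bp mostly beyond 500 bp. FBP1, for fructose-1,6-bisphosphatase, was open in 1 of 12 at 500 bp and in all 12 at 1000 bp, with a median of -572 bp and a range from -636 to -417 bp. Counting any base of a peak, FBP1 had one in the 500 bp promoter in 10 of 12 libraries. PCK1, for phosphoenolpyruvate carboxykinase, had a peak base there in 7 of 12 and a summit in 0. At 1000 bp it was open in 2 of 6 YAC and 5 of 6 integrated libraries, from -592 to -505 bp, a difference that did not pass Fisher's exact test (p = 0.242, adjusted p = 1).

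Among the regulators, TYE7 had the highest median percentile of the 30 genes with a summit within 1000 bp. This activator gene (chromosome XV, 977194 to 978069) had no summit within 500 bp in any library. A peak with a median width of 1068 bp lay farther upstream, and its summit was within 1000 bp in 5 of 6 YAC and 6 of 6 integrated libraries, at a median of -728 bp. In synHPRT1R YAC replicate 3 the summit was at -1113 bp. The peak touched the promoter in all 12 libraries. In the 11 libraries with its summit within 1000 bp, its percentile ranged from 87.3 to 98.3 with a median of 94.9. GCR1 was open in 5 of 6 YAC and 6 of 6 integrated libraries, with the summits closest to the start among the 14 genes open in at least 9 libraries, at a median of -136 bp. GCR2 was open in 0 of 12 in both windows.

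The height of the peaks varied among genes that were open equally often. The authors' fold enrichment of the strongest summit in the ENO2 promoter ran from 3.42 to 6.34 with a median of 5.47 over 12 libraries. In the TPI1 promoter, also open in 12, it ran from 2.65 to 5.53 with a median of 4.27, at percentiles from 18.2 to 91.7. FBA1 had percentiles from 42.1 to 95.2 with a median of 75.5, and TDH2 from 42.1 to 89.3 with a median of 71.8. These ranges overlap widely, and no order among the 3 is read from them. PGK1 kept the narrowest range of the 14 genes open in at least 9 libraries, from 82.9 to 98.4 over the 11 libraries in which its promoter was open. GPM1, open in as many, ranged from 11.3 to 78.8 with a median of 52.9, and GCR1 from 25.2 to 69.1 with a median of 47.0. TDH1 had the lowest median of the 3 TDH genes, 35.6 in its 9 open libraries, against 71.8 for TDH2 and 77.4 for TDH3. Its range from 7.73 to 72.8 overlapped those of TDH2 and of TDH3, which ran from 39.7 to 88.8. Over 12 libraries within 1000 bp the TDH1 median was 43.1.

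**Figure D5:**
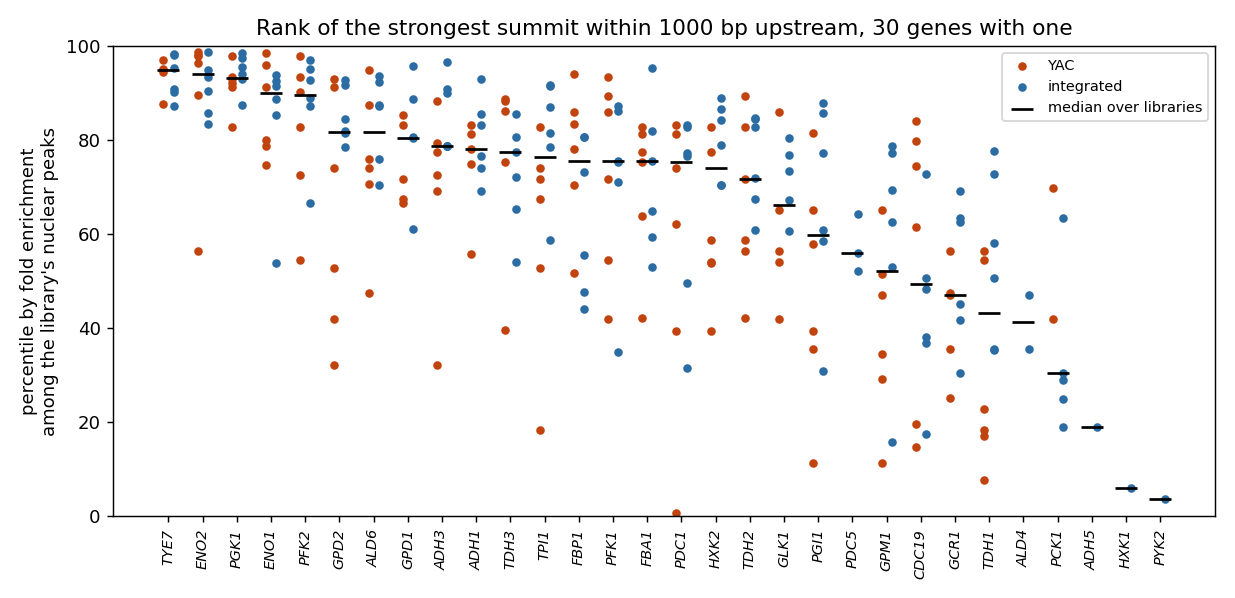
Percentile by the authors' fold enrichment, among the nuclear peaks of the same library, of the strongest summit within 1000 bp upstream, for the 30 of 34 genes with such a summit in at least 1 library. Points are YAC (left) and integrated (right) libraries and bars are medians. TYE7, ENO2 and PGK1 have medians of 94.9, 94.1 and 93.2 over 11, 12 and 12 libraries.

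Peaks also lay inside the genes, from 101 bp after the start to the gene end. Of the 34 genes, 21.1 ± 8.11% held such a summit per library (n = 12), against 3.02 ± 0.373% of all genes. In at least 6 of 12 libraries 8 of the 34 did, or 23.5%, against 2.67% of all genes. They were GLK1, FBA1, TDH2, TDH3, PGK1, ENO2, PDC1 and ADH1. TDH3 led with 5 of 6 YAC and 6 of 6 integrated libraries. Per kb of gene body the 34 genes had 0.189 ± 0.0870 summits and all genes 0.0230 ± 0.00305. Leaving out summits in the promoter of any gene kept 20.6 ± 7.42% of the 34 genes, against 2.17 ± 0.290% of all. These peaks were weak, with a median percentile of 19.3 in their libraries. At a fold enrichment of at least 3, 10.05 ± 4.77% of the 34 genes held one, against 2.03 ± 0.355% of all. The coding sequences within the TDH, ENO and PDC sets are much alike, as are those of ADH1 and ADH2, and the placing of reads that match several sites is not described in the sources used here. Positions inside these genes are uncertain for that reason.

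The comparison of formats set 6 YAC against 6 integrated libraries. Open promoters among the 34 genes came to 43.6 ± 3.44% in YAC libraries and 50.0 ± 4.92% in integrated libraries, against 14.3 ± 0.688% and 17.0 ± 2.02% of all genes. Of the 21 of the 34 genes that varied, 4 were open in more YAC libraries and 14 in more integrated libraries. Over the 2040 genes tested, 28.5% were open in more YAC libraries and 54.5% in more integrated ones. With these full peak lists, genes as a whole leaned the same way. None of the 34 genes passed Fisher's exact test with Benjamini-Hochberg adjustment, nor did any gene (0% called), and the smallest unadjusted p among the 34 was 0.182. At an unadjusted p under 0.05, 3 genes of all tested were open in more YAC libraries (0.147%) and 8 in more integrated libraries (0.392%), and none was among the 34. With 6 libraries against 6 the smallest p is 0.00216, and 89 of the 2040 genes would have to reach it before any could pass the adjustment. A full switch of the 21 varying genes alone could therefore not have been called. Peak lists were shorter on the YAC, with 913 to 1041 nuclear peaks, than in integrated libraries, with 993 to 1303. Every list was then cut to the 913 peaks with the highest -log10 q-value of the authors. The 34 genes came to 42.6 ± 3.08% in YAC and 48.5 ± 4.05% in integrated libraries, against 13.1 ± 0.212% and 13.2 ± 0.285% of all genes. YAC minus integrated was then -5.88 percentage points for the 34 genes and -0.114 for all genes, against -6.37 and -2.76 with full lists. Whether the 34 genes differ from all genes in this was not tested.

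Within synHPRT1R the values were 41.2 ± 2.94% on the YAC and 52.9 ± 2.94% integrated, and within synHPRT1 they were 46.1 ± 1.70% and 47.1 ± 5.09% (n = 3 each). All 6002 genes gave 14.2 ± 1.05% and 18.0 ± 0.816% within synHPRT1R, and 14.3 ± 0.264% and 16.03 ± 2.57% within synHPRT1. For the 34 genes and for all genes alike, the synHPRT1R groups did not overlap and the synHPRT1 groups did. Whether the 2 constructs differ in this was not tested.

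Inside the genes, 16.2 ± 6.10% of the 34 held a summit in YAC libraries and 26.0 ± 7.06% in integrated libraries, against 2.74 ± 0.217% and 3.29 ± 0.271% of all genes. TDH2 and PGK1 each had one in 2 of 6 YAC and 6 of 6 integrated libraries (Fisher's exact test, unadjusted p = 0.0606 each). These summits were weak, at median percentiles of 12.6 for TDH2 and 15.3 for PGK1. Integrated libraries mostly had longer peak lists, and the formats were not compared inside genes at equal list length. Of the 16 genes that varied, 3 had a summit inside in more YAC libraries and 11 in more integrated ones. Over the 470 genes tested, 33% and 52.6% did so. None of the 470 passed Fisher's exact test after adjustment (0% called), and at an unadjusted p under 0.05 there were 1 and 2 genes, none of them among the 34.

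The comparison of constructs set 6 synHPRT1R against 6 synHPRT1 libraries. Open promoters among the 34 genes came to 47.1 ± 6.96% with synHPRT1R and 46.6 ± 3.44% with synHPRT1, against 16.1 ± 2.26% and 15.2 ± 1.88% of all genes. The difference was smaller than the spread between libraries. Of the 21 genes that varied, 8 were open in more synHPRT1R and 10 in more synHPRT1 libraries, where 44.7% and 35.9% of the 2040 genes tested did so. No gene passed Fisher's exact test after adjustment (0% called), and at an unadjusted p under 0.05 there was 1 gene open in more synHPRT1R libraries (0.049%), not among the 34, and 0 the other way. TDH1, with 6 synHPRT1R and 3 synHPRT1 libraries, had the smallest p among the 34 at 0.182.

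Beyond the 34, 42 further genes of the pathway, its branches and its regulators had open promoters in 29.2 ± 6.02% of cases (n = 12 libraries). Of these, 11 were open in at least 9 libraries and 21 in none. ACS1, an acetyl-CoA synthetase, GPP2, a glycerol phosphatase, and MDH2, the cytosolic malate dehydrogenase, were open in all 12. PYC1, for pyruvate carboxylase, and TPS1, for trehalose 6-phosphate synthase, were open in 11. EMI2, the relative of GLK1, was open in 9. The phosphoglycerate mutase relatives GPM2 and GPM3 and the enolase relatives ERR1, ERR2 and ERR3 were open in 0, in contrast to 11 for GPM1, 12 for ENO2 and 10 for ENO1. Of the factors that bind glycolytic promoters, the gene of Abf1 was open in 11 libraries, of Reb1 in 10 and of Rap1 in 2. The activators of genes for growth without glucose, CAT8, SIP4 and ADR1, were open in 0, and ADR1 in all 12 within 1000 bp. Whether repression by glucose goes with a closed promoter was not tested, here or among the 34 genes. None of the 42 passed Fisher's exact test between formats or constructs after adjustment. For comparison, 26 genes of the TCA cycle and respiration were open in 25.3 ± 7.42% of cases and 11 genes of hexose transport in 30.3 ± 9.76%.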

How the data were processed

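The 34 genes, the role groups and all compared lists were chosen with earlier results of these data known. The deposited files were peak lists, 1 per library. The submitters' processing notes name MACS2 2.1.0, Bowtie2 2.2.9 and the build sacCer3, beside SAMtools 1.9, bcl2fastq 2.20 and deepTools 3.5.0. Options for calling peaks and the handling of duplicate or multi-mapping reads are not given in the sources used. Deposited rows held the authors' score, fold enrichment (a ratio to local background), -log10 p-value, -log10 q-value and summit position. The score and p-value were not used. Fold and -log10 q ranked or filtered peaks within a list.

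Gene positions came from the RefSeq R64 gene table. Python 3.11.15 with SciPy 1.17.1 was used. Presence of a summit per gene was tested with Fisher's exact test, two-sided, over genes open in 1 to 11 libraries, with Benjamini-Hochberg adjustment, and checked on simulated data with 200 changed genes, enough for the adjustment to be passed. Isozyme pairs were compared by exact two-sided sign tests over 12 libraries, adjusted over 24 pairs. That test, the 1000 bp window and the summits inside genes were added after the data had been seen. All 34 genes are accounted for, with more detail for those open in 9 or more libraries, those differing by 3 or more libraries between groups, and their isozymes. Peak lists hold only positions that passed the caller, so a closed promoter means no called summit.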

Additional observations from a re-analysis of the deposited data

How the results depend on the processing

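The number of genes called was 0 in both comparisons under the alternatives run, which says nothing about stability. For 2040 genes tested with 6 libraries against 6, a call would need 89 genes at the smallest p of Fisher's exact test. With 5 libraries against 6, as when 1 is left out, it would need 177 for as many genes tested. The replicate block, a sign-flip test over libraries sharing a number, called 0 and would need 1276 genes at its smallest p of 0.0312. A permutation within the other factor called 0 and would need 205. At an unadjusted p under 0.05 the block gave 2 genes between formats and 0 between constructs, and the permutation 11 and 1. No shared deviation was seen between libraries with the same replicate number, with correlations from -0.0545 to 0.0215 over 18 pairs. Whether such libraries were grown or prepared together is not labelled and cannot be read from these values. The percentage of the 34 genes open moved from 46.8 to 11.3 with 300 bp upstream, 69.4 with any base of a peak, 16.4 at a -log10 q of at least 10 and 72.3 with 1000 bp. Isozyme pairs passing numbered 5, and 0, 12, 0 and 12 in the same order. The difference between YAC and integrated libraries became 0 percentage points with 300 bp and -15.2 at that q, and between synHPRT1R and synHPRT1 -3.92 and 5.39, against 0.49 at first. Summits inside genes fell to 10.05% at a fold of at least 3 and 0.245% at that q. Without 1 library the ranges were 46.0 to 47.6%, -8.14 to -5.20 and -1.27 to 2.25 percentage points, 5 to 6 pairs and 19.8 to 22.5% with a summit inside the gene. The sign of the difference between constructs thus depended on the library left out. It was -1.27, -0.098 and -0.686 without synHPRT1R integrated replicates 1, 2 and 3, and -0.588 without synHPRT1 integrated replicate 1. Without synHPRT1 YAC replicate 1 it was 0, and without any 1 of the remaining libraries it was positive. With lists of equal length it was -0.980. For single genes, 60 of 476 differences moved beyond the spread between libraries of a group under other settings, and 0 of 816 without 1 library. A gene open in no library or in all 12 has no such spread, so any change in its difference counted as moved. Leaving out 1 library cannot shift the difference of a varying gene by as much as that spread. The 0 was therefore fixed in advance and says nothing about stability. The cause of the shifts listed here was not tested. Whether weak summits near the calling threshold limit the counts was not tested either, and read depth is unknown.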
